A study of Homo sapiens with 3 samples.

Results

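The genes described here encode proteins that read methylated CpG sites or that take part in removing the methyl group. There are 9 of them, of 19775 genes with a probe set of their own on the array. The TET group holds TET1, TET2 and TET3, joined by the glycosylase gene TDG. The reader group holds MBD1, MBD2, MBD3, MBD4 and ZBTB33. The genes were chosen by symbol, and every probe set that the array's annotation assigned to exactly 1 of these symbols was used, with no filter on level, which gave 28 of 54613 probe sets. Between 2 and 5 probe sets represented each gene.

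RNA of HCT116, an established cell line from a human colorectal carcinoma, was hybridised to 3 Affymetrix arrays of a single colour. Cells had received lentivirus carrying UHRF1 hairpin 2 (1 array), UHRF1 hairpin 5 (1 array) or a scrambled hairpin (1 array), and all were grown under puromycin for 6 days before total RNA was taken. The design set the UHRF1-depleted cells against the control to find transcripts that depend on UHRF1, a protein that binds hemimethylated DNA and is required for the maintenance of DNA methylation. No label says that the arrays came from separate cultures, and neither hairpin has a second array, so the spread between the hairpins mixes the effects of hairpin, culture and array.

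DNA methylation is written by DNA methyltransferases, read by proteins that recognise the methylated CpG, and removed either passively, when it is not copied at replication, or actively. In the active route the TET dioxygenases oxidise 5-methylcytosine in steps, and TDG excises the more oxidised products so that base excision repair can put back an unmodified cytosine. Several readers carry a methyl-CpG-binding domain: MBD1 and MBD2 bind methylated DNA and recruit repressors, MBD3 of mammals has lost most of that preference and, like MBD2 but in a separate form of it, belongs to the NuRD remodelling and deacetylase complex, and MBD4 is also a glycosylase that removes thymine left by deamination of methylcytosine. ZBTB33, also called Kaiso, reads methylated CpGs through zinc fingers and not through such a domain.

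Values are the deposited log2 values, and a difference is a hairpin array minus the scrambled array on that scale unless hairpin 2 minus hairpin 5 is named. The table carries no detection calls, so each probe set is also placed by its mean over the 3 arrays, and a mean under the 40th percentile of all probe sets (log2 2.79) is called low here, since such a value may be background. The array medians were 2.977 with hairpin 2, 3.044 with hairpin 5 and 3.002 for the scrambled array, and having only 3 arrays limits the precision. The UHRF1 probe set 225655_at read 6.20 with hairpin 2 and 6.67 with hairpin 5, against 8.54 on the scrambled array. DNMT1, the maintenance methyltransferase, read 8.94 with hairpin 2 and 8.50 with hairpin 5, against 8.81 on the scrambled array. All 7 epithelial markers examined were above the low range, from 6.48 to 12.15 with hairpin 2, from 6.33 to 12.48 with hairpin 5 and from 6.16 to 12.26 on the scrambled array. The 4 leukocyte markers lay between 2.51 and 2.94 on all 3 arrays, near the array medians, and 2 of them were above the low range. The 3 neuronal markers lay between 2.85 and 3.86, and all 3 were above the low range, so a signal just above that limit may also be background. Of 8 fibroblast and endothelial markers 5 were above the low range, the highest being COL1A1 at 6.39 with hairpin 2 and 5.75 with hairpin 5, against 5.82 on the scrambled array, and their part in the results was not tested. In whole-culture RNA, fewer cells of a type and less RNA per cell cannot be told apart.

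None of the 28 probe sets of these genes was as much as 2-fold from the scrambled array with either hairpin, and none was 2-fold apart between the hairpins. Such differences were rare over all probe sets too, and shares this small leave little room for a call among 28. With hairpin 2, 0.558% of all probe sets were at least 2-fold higher and 0.222% lower than the scrambled array, and with hairpin 5 the shares were 0.135% and 0.683%. With both hairpins they were 0.0586% and 0.103%. Between the hairpins, 1.14% were at least 2-fold higher and 0.0751% lower with hairpin 2. Limma's moderated test of the hairpin arrays against the scrambled array called 0 of the 28 at an adjusted p of 0.05, and it called 0 of all 54613 probe sets (percent called 0). At an unadjusted p under 0.05 it held 0 of the 28 and 1595 of all probe sets, or 2.92%. The lowest p among these genes was 0.0573, for TET1, with an adjusted p of 1.00 after rounding, in common with all 28 in limma. The standard error of the fitted difference ran from 0.147 to 0.439 with a median of 0.176, so the fit had little power for differences of the sizes seen here. An exact permutation of 1 control among 3 arrays could not give a p below 0.333.

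By direction alone, 6 of the 28 probe sets were higher and 7 were lower than the scrambled array with both hairpins, and 15 were on different sides or level on 1 array. Of all probe sets, 31.7% were higher and 30.8% lower with both. The split moved with the scaling: 5 were higher and 10 lower with the arrays centred on their medians (30.3% and 32.7% of all probe sets), and 4 were higher and 10 lower with cyclic loess (32% and 32.4% of all). Those differences share the scrambled array, which alone puts many probe sets on the same side. The median difference of the 28 was −0.01 with hairpin 2 and −0.01 with hairpin 5, beside −0.01 and 0.01 for all probe sets. The largest single difference was −0.79 (ZBTB33 with hairpin 5), and with hairpin 2 it was 0.55 (MBD4). The plot of values on the 3 arrays shows each probe set.

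**Figure D1:**
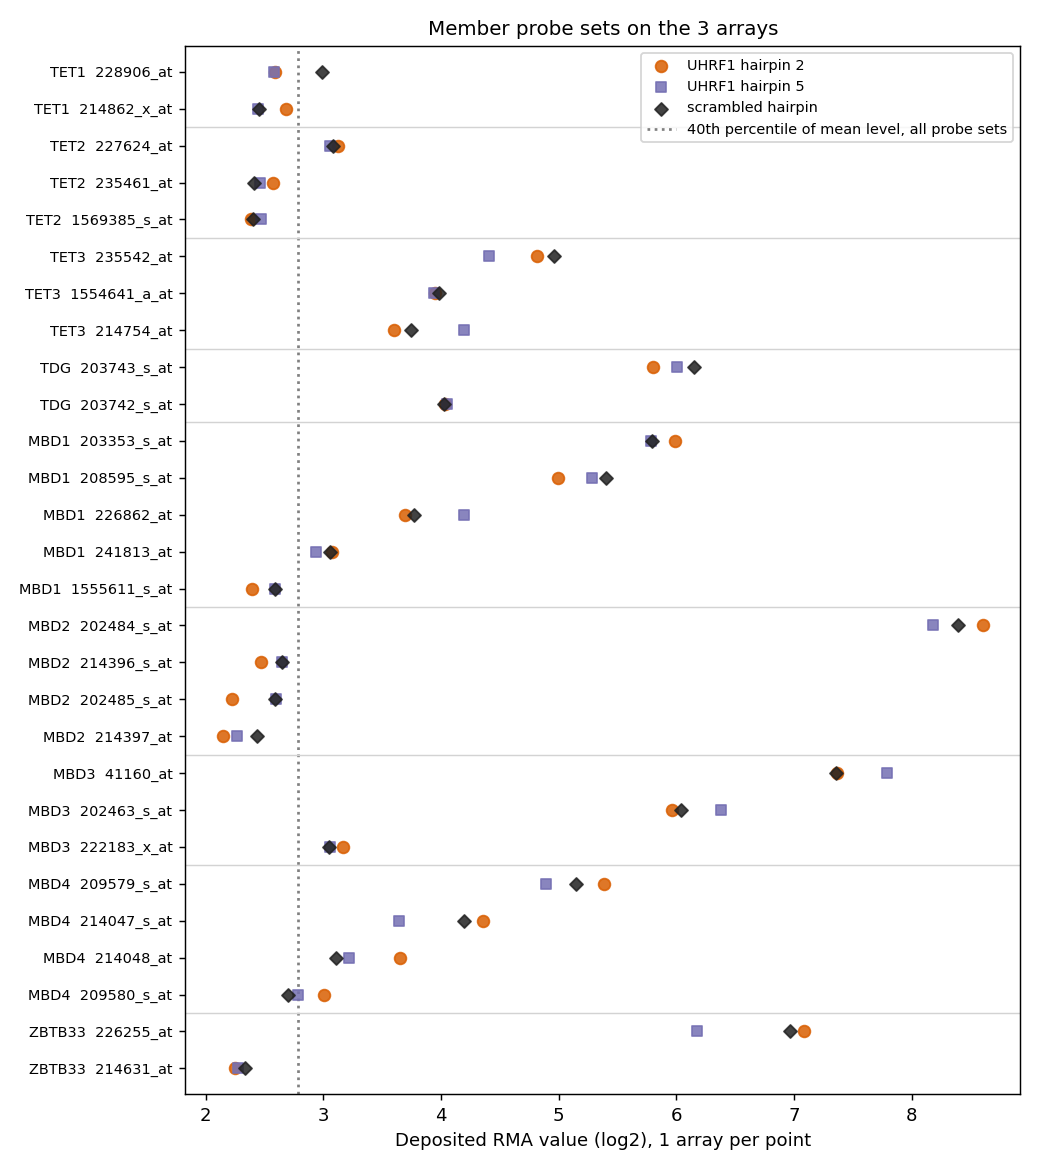
Deposited RMA value (log2, horizontal axis) of each of the 28 probe sets (rows, grouped by gene) on the UHRF1 hairpin 2, UHRF1 hairpin 5 and scrambled arrays, with 1 point per array and no replicates of a hairpin. The dotted line is the 40th percentile of the mean level of all probe sets, 2.79. The points of a row lie close together, with the widest gap, 0.91 between hairpin 2 and hairpin 5, at ZBTB33 226255_at.

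The TET dioxygenase genes had low or modest signals. TET1 had its higher signal at 228906_at, which read 2.59 with hairpin 2 and 2.58 with hairpin 5, against 2.99 on the scrambled array. Both hairpin arrays were lower, by nearly the same amount (differences of −0.40 and −0.41, mean −0.40 ± 0.01 SD, n = 2 hairpins). No other probe set of the 28 was this far from the scrambled array with both hairpins. The mean level was in the low range, so the difference lies between values that may all be background. Among probe sets outside the low range, 6.70% were at least as far below the scrambled array with hairpin 2 and 11.97% with hairpin 5. That set leaves out 228906_at itself and spreads more widely. The median size of a difference in it was 0.175 with hairpin 2 and 0.198 with hairpin 5, against 0.138 and 0.152 over all probe sets. These shares therefore do not rank 228906_at among probe sets of its own level. The other TET1 probe set, 214862_x_at, was 0.23 higher with hairpin 2 and 0.01 lower with hairpin 5, also in the low range. The suffix _x_at marks probes that may bind other transcripts.

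TET2 gave no difference above 0.16 on any probe set. At 227624_at it read 3.13 with hairpin 2 and 3.06 with hairpin 5, against 3.08 on the scrambled array. The arrays lay within 0.07 of each other there, with the scrambled array in the middle. The other TET2 probe sets, 235461_at and 1569385_s_at, stayed in the low range, with differences of 0.16 and 0.05 for 235461_at and of −0.02 and 0.07 for 1569385_s_at (hairpin 2 and hairpin 5).

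TET3 was measured outside the low range by all 3 of its probe sets, and they did not give a single answer for hairpin 5. Probe set 235542_at read 4.82 with hairpin 2 and 4.41 with hairpin 5, against 4.96 on the scrambled array, so both hairpin arrays were lower (−0.15 and −0.56). Probe set 214754_at read 3.60 with hairpin 2 and 4.20 with hairpin 5, against 3.75 on the scrambled array, so hairpin 5 was the highest array (−0.15 and 0.45). The third, 1554641_a_at, lay within 0.05 across the arrays (−0.04 and −0.05). With hairpin 2 all 3 probe sets were lower than the scrambled array, by 0.15 at most. Which TET3 transcripts each probe set binds was not examined here.

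TDG, the glycosylase that acts after the TET enzymes, read 5.80 with hairpin 2 and 6.00 with hairpin 5 at 203743_s_at, against 6.15 on the scrambled array. Both hairpin arrays were lower there (−0.35 and −0.15, mean −0.25 ± 0.14 SD, n = 2 hairpins). Its other probe set, 203742_s_at, read 4.03 with hairpin 2 and 4.05 with hairpin 5, against 4.03 on the scrambled array, and so was level on all 3 arrays. Probe sets ending in _s_at can bind several transcripts, and TDG has a pseudogene, so its values are uncertain in that respect.

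Among the readers, MBD1 had 5 probe sets that pointed different ways. The one with the highest signal, 203353_s_at, read 5.99 with hairpin 2 and 5.79 with hairpin 5, against 5.80 on the scrambled array (differences of 0.19 and −0.01). Probe set 208595_s_at read 5.00 and 5.28, against 5.41 on the scrambled array, and was lower with both hairpins (−0.41 and −0.12). Probe set 226862_at was instead 0.43 higher with hairpin 5 and 0.08 lower with hairpin 2. The other MBD1 probe sets, 241813_at and 1555611_s_at, differed by 0.20 or less. The mean over the 5 was −0.10 with hairpin 2 and 0.03 with hairpin 5.

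MBD2, a reader that brings NuRD to methylated DNA, had 1 probe set with strong signal. At 202484_s_at it read 8.60 with hairpin 2 and 8.18 with hairpin 5, against 8.40 on the scrambled array. The hairpins lay on opposite sides of the scrambled array by similar amounts (0.21 and −0.21), which left a mean of 0.00 ± 0.30 (SD, n = 2 hairpins). The other 3 MBD2 probe sets were in the low range and were 0.18 to 0.36 lower with hairpin 2. With hairpin 5 they differed by 0.00 (214396_s_at), 0.01 (202485_s_at) and −0.17 (214397_at).

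MBD3, the NuRD subunit, was the gene whose probe sets were all above the scrambled array with hairpin 5. At 41160_at it read 7.37 with hairpin 2 and 7.79 with hairpin 5, against 7.35 on the scrambled array. At 202463_s_at it read 5.96 with hairpin 2 and 6.38 with hairpin 5, against 6.04 on the scrambled array. On both probe sets hairpin 5 stood apart (0.43 and 0.35 higher than the scrambled array), while hairpin 2 was level with the control (0.02 and −0.08). Differences at least this high with hairpin 5 occurred in 6.99% (41160_at) and 11.5% (202463_s_at) of probe sets outside the low range. Probe set 222183_x_at, with weak signal, was 0.12 higher with hairpin 2 and 0.01 higher with hairpin 5.

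MBD4, the thymine glycosylase, was higher with hairpin 2 than with either other array on all 4 probe sets. At 209579_s_at it read 5.39 with hairpin 2 and 4.89 with hairpin 5, against 5.15 on the scrambled array. At 214047_s_at it read 4.36 with hairpin 2 and 3.65 with hairpin 5, against 4.20 on the scrambled array. On these probe sets hairpin 5 was the lowest array, by 0.26 and 0.55 below the control. At 214048_at it read 3.65 with hairpin 2 and 3.22 with hairpin 5, against 3.11 on the scrambled array, and here hairpin 5 was 0.12 above the control, as it was by 0.08 at 209580_s_at (3.01 with hairpin 2, 2.78 with hairpin 5 and 2.70 on the scrambled array). At 209580_s_at only the hairpin 2 value was above the low-range limit, so this probe set passed it only through the array where it was highest. The MBD4 probe sets gave the same side for hairpin 2 (0.16 to 0.55 higher) and different sides for hairpin 5 (−0.55 to 0.12). Hairpin 2 exceeded hairpin 5 by 0.23 to 0.71 on the 4 probe sets, which share the same arrays and are not replicates. Of all probe sets outside the low range, 5.40% (214048_at) to 27.5% (214047_s_at) were at least as far above the scrambled array with hairpin 2. At least as far above hairpin 5 with hairpin 2 were 5.02% (214047_s_at) to 26.3% (209580_s_at).

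ZBTB33 gave the largest difference of the group. Probe set 226255_at read 7.08 with hairpin 2 and 6.17 with hairpin 5, against 6.97 on the scrambled array. Hairpin 2 was close to the control (0.12 higher), and hairpin 5 was 1.73-fold lower than the control (−0.79) and 1.88-fold lower than hairpin 2. The mean of the hairpins was −0.34 ± 0.64 (SD, n = 2 hairpins), so the hairpins differed from each other by more than their mean differed from the control. Of the probe sets outside the low range, 2.66% were at least as far below the scrambled array with hairpin 5. The other ZBTB33 probe set, 214631_at, was in the low range on all 3 arrays (2.25 with hairpin 2, 2.28 with hairpin 5 and 2.33 on the scrambled array), so 1 probe set alone carries the value.

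At 1.5-fold, ZBTB33 226255_at was the 1 probe set of the 28 that was lower with hairpin 5 than on the scrambled array, beside 3.77% of all probe sets. None of the 28 was 1.5-fold higher with hairpin 5 (1.61% of all), and with hairpin 2 none was 1.5-fold higher (2.75%) or lower (1.42%). Between the hairpins, ZBTB33 226255_at and MBD4 214047_s_at were at least 1.5-fold higher with hairpin 2 than with hairpin 5, 2 of 28 beside 4.82% of all probe sets. TET3 214754_at was 1.5-fold lower with hairpin 2 than with hairpin 5 (1 of 28, beside 1.55%). The 3 lie on different genes, and with 1 array per hairpin none of these differences has a replicate check. The plot of hairpin 5 against hairpin 2 differences shows their places.

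**Figure D2:**
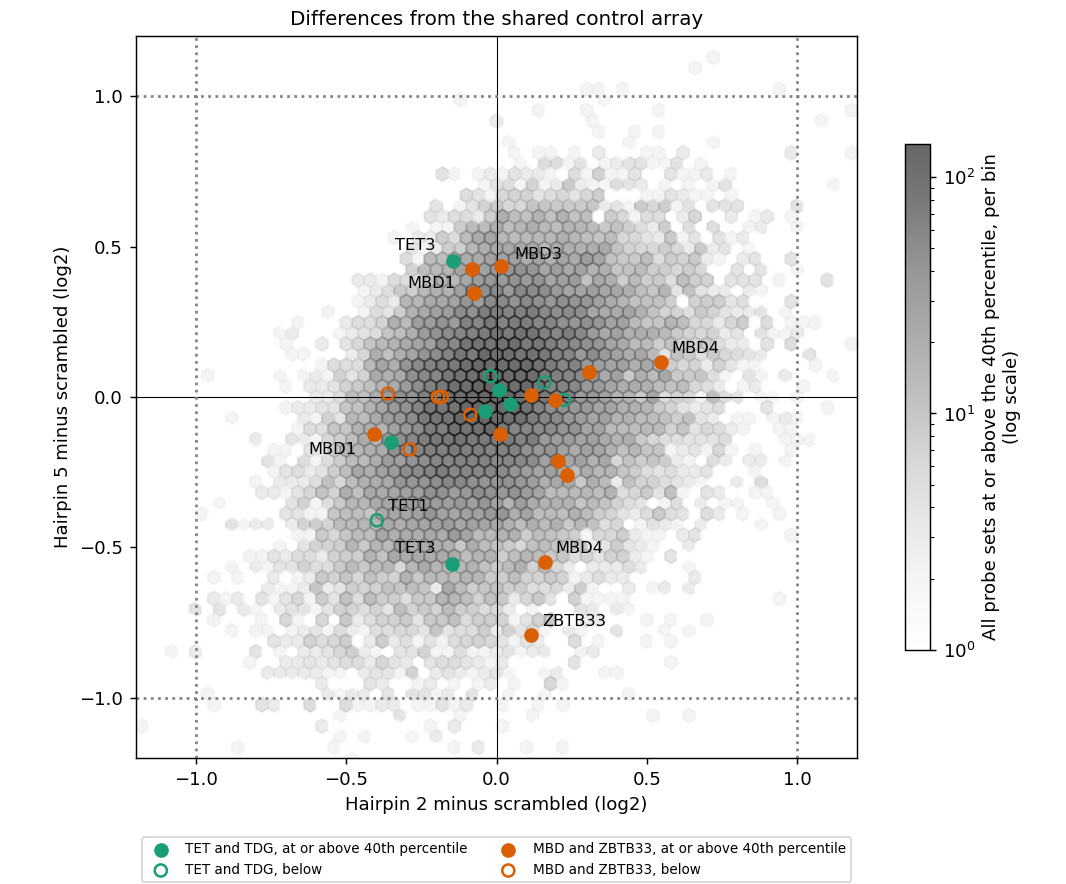
Hairpin 2 minus scrambled (horizontal axis) against hairpin 5 minus scrambled (vertical axis), both in log2, for the 28 probe sets (green for TET and TDG, orange for MBD and ZBTB33, open circles for the low range) over the density of 32366 probe sets outside the low range, with 404 more beyond the axes and dotted lines at 2-fold. Genes are named where a difference reached 0.4. All 28 lie inside the dotted lines, and ZBTB33 at 0.12 and −0.79 is the lowest point.

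When each gene was represented by its brightest probe set (highest mean of the 3 arrays), 8 of 9 genes were below the scrambled array with hairpin 5, MBD3 being the exception, and the median difference was −0.21. Over all genes, each by its own such probe set, 50.3% were lower with hairpin 5 and the median was 0.00. With hairpin 2, 3 of 9 were lower (49.6% of all genes) and the median was 0.05. The 8 lower values ran from −0.01 (MBD1) to −0.79 (ZBTB33), no gene of the 9 had a second hairpin 5 array, and over all 28 probe sets 15 were lower with hairpin 5, beside 46.9% of all probe sets. The direction with hairpin 5 thus depended on which probe set stood for a gene. Of the 5 genes with more than 1 probe set outside the low range, MBD3 alone had all of them on the same side with hairpin 5. Its probe set 222183_x_at was only 0.01 above the scrambled array. With hairpin 2 there were 2 such genes, TET3 (lower) and MBD4 (higher). For MBD4, 209580_s_at passed the low-range limit only through its hairpin 2 value. How often the probe sets of a gene share a side over all genes was not examined. These counts therefore do not show whether the 9 genes differ from others in this respect.

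The promoters of these genes differ widely in CpG content, the sequence that UHRF1, the TET enzymes and the readers act on. RefSeq start sites on GRCh38.p14 gave 13 promoters for the 9 genes, each 300 bases long, from 250 before the start to 50 after it. All 13 held the motif CG, with 6 to 45 copies and a median of 29, beside a median of 14 over all 35116 promoters of the table, 96.0% of which held at least 1. The motif CGCG, which reads the same on both strands and contains CG, was in 11 of the 13 and in 49.9% of all promoters. The sequences of TET1, MBD3 and ZBTB33 are shown because of the differences described above. TET1 was lower on both hairpin arrays by nearly the same amount at 228906_at, in the low range, but not at 214862_x_at. MBD3 was higher with hairpin 5 on all its probe sets, though by only 0.01 at 222183_x_at. ZBTB33 had the largest difference. CG is in capitals. The TET1 promoter is at chr10:68560087-68560386 (plus strand) with 10 copies of CG, the MBD3 promoter at chr19:1592816-1593115 (minus strand) with 40, and the ZBTB33 promoter at chrX:120250562-120250861 (plus strand) with 33.
TET1: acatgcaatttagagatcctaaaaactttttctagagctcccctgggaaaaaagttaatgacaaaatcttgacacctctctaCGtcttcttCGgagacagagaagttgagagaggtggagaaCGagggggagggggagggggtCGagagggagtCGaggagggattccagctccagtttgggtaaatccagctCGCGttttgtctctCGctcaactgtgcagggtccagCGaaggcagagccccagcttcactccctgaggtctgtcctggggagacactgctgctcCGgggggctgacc
MBD3: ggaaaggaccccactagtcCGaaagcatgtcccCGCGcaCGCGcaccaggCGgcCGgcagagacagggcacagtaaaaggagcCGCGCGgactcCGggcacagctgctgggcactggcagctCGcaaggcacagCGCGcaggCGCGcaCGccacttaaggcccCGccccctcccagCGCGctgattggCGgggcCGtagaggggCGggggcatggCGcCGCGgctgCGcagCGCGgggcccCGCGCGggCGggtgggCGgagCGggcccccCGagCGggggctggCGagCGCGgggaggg
ZBTB33: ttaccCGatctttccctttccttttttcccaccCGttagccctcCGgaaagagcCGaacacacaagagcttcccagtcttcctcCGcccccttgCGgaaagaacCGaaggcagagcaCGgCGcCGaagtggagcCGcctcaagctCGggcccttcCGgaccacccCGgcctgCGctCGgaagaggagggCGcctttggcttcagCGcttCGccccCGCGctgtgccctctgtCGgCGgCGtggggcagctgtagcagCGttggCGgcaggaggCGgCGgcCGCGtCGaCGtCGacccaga
Of all promoters, 45.3% had 10 copies or fewer, as TET1 has here, against 93.3% with 40 or fewer for MBD3 and 84.4% with 33 or fewer for ZBTB33. TET1 has further start sites in the table, with 6 and 11 copies, and TET2 has start sites with 13 and 35, so the 4 promoters of the 13 with the fewest copies belong to TET1 and TET2. TET3 had the promoter with the most copies, 45. Methylation of these promoters was not measured here, and which start sites HCT116 cells use was not examined.

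Related genes were described in the same way, by the brightest probe set of each gene. They included partners of the readers and of the TET enzymes, and wider lists such as base excision repair. Of 56 such genes, 22 were higher and 15 lower with both hairpins (30.5% and 31% of all genes), and 0 were 2-fold higher or lower with both (0.0607% and 0.167% of all genes). Limma called 0 of them at an adjusted p of 0.05, and 2 (NEIL3 and GADD45A) had an unadjusted p under 0.05, beside 3.86% of all genes, which is near the share of the 56. Of 12 genes named from these lists that had more than 1 probe set, 8 came nearer to the control by over 1.5 times when their probe sets were averaged, 2 moved farther away by as much, and 1 changed sides. Among 12 NuRD subunits, 6 were higher and 2 lower with both, with medians of 0.06 with hairpin 2 and 0.09 with hairpin 5. MTA2, a scaffold subunit measured by 1 probe set, read 3.42 with hairpin 2 and 3.78 with hairpin 5, against 3.04 on the scrambled array. That control value lay near the median of the scrambled array, 3.002. The ATPase CHD4 was 0.19 and 0.21 higher and the deacetylase HDAC1 0.11 and 0.15 higher, while GATAD2B, a structural subunit, was 0.18 and 0.40 lower. With their probe sets and the hairpins averaged, CHD4 stood at 0.36 and GATAD2B at −0.13.

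The base excision repair genes went both ways. Their list covered base excision repair in general, and not only the steps after TET oxidation. Of 15, 5 were higher and 6 lower with both hairpins, with medians of 0.04 with hairpin 2 and −0.08 with hairpin 5. The glycosylase gene NEIL3 read 5.13 with hairpin 2 and 5.17 with hairpin 5, against 5.76 on the scrambled array. Its relative NEIL2 was 0.45 and 0.36 lower. The flap endonuclease FEN1 was 0.30 and 0.31 higher, and the oxoguanine glycosylase OGG1 was 0.22 and 0.35 higher. With their probe sets and the hairpins averaged, FEN1 stood farther above the control, at 0.65, and OGG1 turned to −0.02.

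Of the 11 TET cofactor and regulator genes, 3 were higher and 2 lower with both hairpins, with medians of 0.01 with hairpin 2 and 0.04 with hairpin 5. OGT, the glycosyltransferase that binds TET proteins, read 8.27 with hairpin 2 and 8.28 with hairpin 5, against 8.63 on the scrambled array. GADD45A, a stress-response gene linked to demethylation and measured by 1 probe set, was 0.69 and 0.93 lower. CXXC5 was 0.63 and 0.18 higher and D2HGDH 0.06 and 0.06 higher. With the 6 probe sets of OGT averaged, hairpin 2 was 0.07 higher and hairpin 5 was 0.48 lower than the control, and with those of CXXC5 averaged the hairpin mean was 0.26.

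Partners of ZBTB33 and MBD1 were the list with the highest medians, 0.23 with hairpin 2 and 0.17 with hairpin 5, and 6 of 8 were higher with both hairpins. HDAC3, the deacetylase of the NCoR complex that ZBTB33 binds, read 7.58 with hairpin 2 and 7.21 with hairpin 5, against 7.03 on the scrambled array. CTCF, an insulator protein, was 0.50 and 0.36 higher. TBL1XR1, a subunit of the NCoR complex, was 0.24 and 0.42 higher, and its relative TBL1X was 0.27 and 0.32 lower. A further list held 10 genes for other methyl-CpG readers, proteins with a methyl-CpG-binding domain and MBD3-like proteins. Of these 10, 2 were higher and 3 lower with both hairpins, with medians of −0.04 with hairpin 2 and −0.03 with hairpin 5. Both of the higher genes were MBD3-like. ZBTB4, a zinc finger reader of the same family as ZBTB33, read 6.39 with hairpin 2 and 5.90 with hairpin 5, against 6.71 on the scrambled array. SETDB1 was 0.11 and 0.09 lower, SETDB2 0.12 and 0.04 lower, and MBD3L1, at a low signal, 0.26 and 0.43 higher. With the probe sets of each gene and the hairpins averaged, TBL1XR1 stood at 0.16, TBL1X at −0.09, SETDB1 at −0.03, MBD3L1 at 0.19 and ZBTB4 at −0.10, with hairpin 2 turning to 0.03 for ZBTB4.

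**Figure D3:**
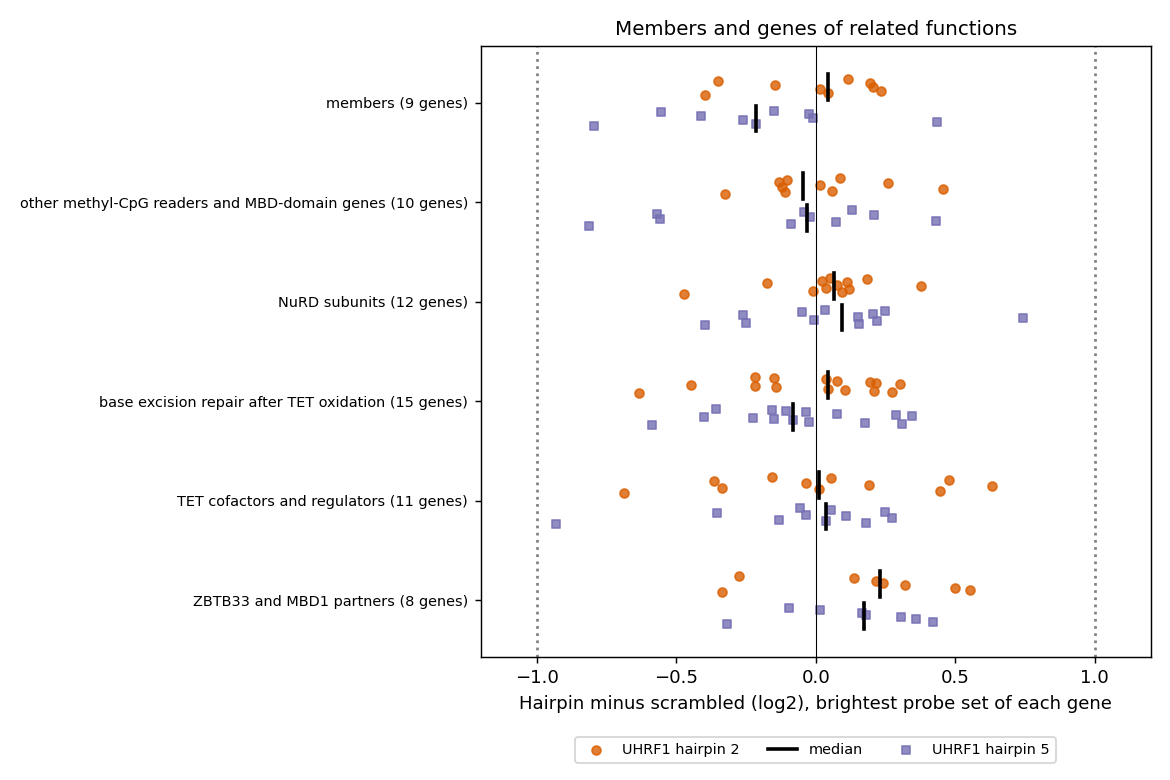
Hairpin 2 (circles) and hairpin 5 (squares) minus scrambled, in log2, for the 9 genes and for the genes of 5 related functions, each gene by its brightest probe set, with black bars at the medians and dotted lines at 2-fold. No point crosses the dotted lines, and the medians lie between −0.21 (the 9 genes with hairpin 5) and 0.23 (partners of ZBTB33 and MBD1 with hairpin 2).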

How the data were processed

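Per the submitters' processing notes, the authors used Affymetrix Expression Console and RMA, and the deposited values are on a log2 scale, judged from their range. Versions, settings and centring are not given in the sources used here. The array's gene annotation gave 1 gene to 41091 of 54613 probe sets, several to 1801 and none to 11721, and gene identifiers matched 41037 to RefSeq symbols.

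Because the hairpins have the same source name, they formed a group of 2 arrays, compared with 1 control array. Linear models from limma 3.58.1 (R 4.3.3; lmFit, eBayes) covered all probe sets, with two-sided p-values adjusted by Benjamini-Hochberg. They left 1 residual degree of freedom, moderated to 3.63, and take the lone control to vary like the hairpin arrays. A run on simulated data gave every array the same spread, so it could not test that assumption. Counts with both hairpins carry no test.

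The members, related lists and tests were chosen with earlier results of these data known. The text names the 9 genes, UHRF1, DNMT1 and up to 4 genes of each related list whose smaller hairpin difference, in the same direction, was largest. COL1A1 was named after its value was seen. Related genes without a probe set of their own were not analysed here. Alternatives were level filters, the choice of probe set, median centring, cyclic loess, other variance priors and thresholds, and leaving out a hairpin.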

Additional observations from a re-analysis of the deposited data

How the results depend on the processing

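No member probe set and no probe set of the table passed limma under any level filter, probe set rule, scaling, variance prior or the adjusted p of 0.1, and no member was 2-fold from the control with both hairpins under any of these or at 1.5-fold or 3-fold. The counts of 0 with both hairpins at 3-fold, and under rules that only drop probe sets, follow from the 0 at 2-fold. They are no further check. Between the hairpins 3 members differed at 1.5-fold, against 0 at 2-fold. Counts by direction moved with the scaling and with the probe sets used: with both hairpins, 5 of 28 were higher and 10 lower after median centring, 4 and 10 after cyclic loess, against 6 and 7 as reported. By probe sets used, 5 of 19 were higher and 4 lower above the 40th percentile, 2 and 4 of 14 above the 60th, 1 and 3 of 9 with 1 probe set per gene, 2 and 4 of 9 with the probe sets of a gene averaged, and 3 and 5 of 13 without _x_at and _s_at probe sets. With a single hairpin, 11 to 14 of 28 were higher and 14 to 15 lower. Each gene's difference, by its brightest probe set with the hairpins averaged, turned as follows. With cyclic loess TET2 stood at −0.0021 and MBD2 at 0.028, against 0.01 and −0.0045 as reported. MBD1 stood at −0.031 as the mean of its probe sets, and MBD4 at 0.08, or at 0.33 without _x_at and _s_at probe sets. By single hairpins TET2 spanned −0.023 to 0.046, MBD1 −0.009 to 0.194, MBD2 −0.214 to 0.205, MBD4 −0.261 to 0.235 and ZBTB33 −0.79 to 0.12, so the ZBTB33 difference rests on hairpin 5. TET1, TET3, TDG and MBD3 kept their direction in every setting that gave a value, but with the probe sets of a gene averaged they stood at only −0.15, −0.08, −0.12 and 0.14. TET1 gave none under the level filters, TET2 none under the filter at the 60th percentile, and TDG none without _s_at probe sets. The medians of the related lists kept their direction under the 40th percentile filter, averaging and both scalings, with an exception. The list of other methyl-CpG readers, which also holds MBD3-like genes, stood at 0.0026 with probe sets averaged, against −0.019 as reported. No paired analysis was possible because there is 1 control array. The number of arrays and the lack of detection calls limit what can be seen.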
